A study of Drosophila melanogaster with 2 samples.

Results

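The gene cu (curled, the fly nocturnin gene) and 8 genes of the circadian clock, cwo, vri, Pdp1, per, tim, Clk, cyc and cry, were examined for occupancy by the tagged zinc-finger protein D19B. They are 9 of 13968 protein-coding genes. The list starts from cu, which was chosen by the height of the peak in its intron. That height is therefore a description here. The other 8 were taken as named clock genes, but also with the peak heights of these data known. All counts were read against the same count over all protein-coding genes, and no test was made. Occupancy was measured by chromatin immunoprecipitation with sequencing (ChIP-seq) in whole Drosophila melanogaster embryos of both sexes, aged 0 to 24 h, from 1 transgenic line that stably expresses D19B with GFP fused to its C terminus. GFP antibody precipitated the chromatin. There was 1 group of 2 libraries, biological replicates 2 and 3, both from that line, and the control library was not analysed here. Whole embryos pool all tissues, so a peak says nothing about which cells carry it, and the sources used here give no time of day of collection.

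In the fly clock the transcription factors CLK and CYC pair on E-boxes, DNA words of the form CACGTG, and activate per and tim. The PER and TIM proteins later return to the nucleus and block CLK and CYC. In a second loop VRI represses and the activating form of PDP1 raises Clk, while CWO, a bHLH-Orange repressor, binds the same E-boxes. CRY is a blue-light photoreceptor that triggers TIM breakdown. Nocturnin was found as a rhythmic transcript in vertebrates, belongs to the deadenylase-related family of nucleases, and cu mutants have upturned wings.

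Peaks came from the authors' list of 4309 reproducible dm6 peaks, kept after an irreproducible discovery rate (IDR) filter on how well replicates rank the same regions. The signal of a peak is the authors' own height relative to the control. In that list it ran from 117 to 15866 with a median of 199.5. The lists of replicate 2, replicate 3 and both libraries together each held 30000 regions, and signals are not scaled between lists. A summit is the position of greatest height within a peak. Read depth is unknown.

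The sequences under the member peaks on which the account turns are shown first, from release 6 of the genome (dm6 coordinates), 5′ to 3′ on the strand of the gene. Each window was cut to the stretch around the summit that lies outside annotated exons. Capitals mark matches, on either strand, to any of 6 words searched: CACGTG (the E-box), TTATGTAA (a site of the VRI and PDP1 family), TATAAA (the TATA box), CGATA (part of the BEAF-32 site), GAGAG (the GAGA factor site) and ACAGGGTA. The tall peak of cu and its lower upstream neighbour come first. The Pdp1, vri and cwo peaks stand for the second loop, and the last window lies upstream of cyc.
cu intron, chr3R:11200775-11201074, plus strand: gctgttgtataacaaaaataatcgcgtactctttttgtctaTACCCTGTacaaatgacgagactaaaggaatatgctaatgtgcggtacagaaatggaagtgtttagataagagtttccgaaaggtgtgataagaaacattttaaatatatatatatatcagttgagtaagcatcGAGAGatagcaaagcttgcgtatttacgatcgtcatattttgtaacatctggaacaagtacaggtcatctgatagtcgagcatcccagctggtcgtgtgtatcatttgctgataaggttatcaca
cu upstream, chr3R:11197286-11197474, plus strand: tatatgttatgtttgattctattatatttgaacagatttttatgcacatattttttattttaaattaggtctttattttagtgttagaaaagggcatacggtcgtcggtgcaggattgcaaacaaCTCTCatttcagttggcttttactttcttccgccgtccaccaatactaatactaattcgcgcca
Pdp1 tallest, chr3L:7855847-7856047, minus strand: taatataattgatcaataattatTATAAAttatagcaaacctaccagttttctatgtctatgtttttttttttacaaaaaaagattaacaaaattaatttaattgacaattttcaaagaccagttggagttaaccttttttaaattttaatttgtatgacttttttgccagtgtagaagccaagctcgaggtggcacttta
Pdp1 second tallest, chr3L:7850974-7851174, minus strand: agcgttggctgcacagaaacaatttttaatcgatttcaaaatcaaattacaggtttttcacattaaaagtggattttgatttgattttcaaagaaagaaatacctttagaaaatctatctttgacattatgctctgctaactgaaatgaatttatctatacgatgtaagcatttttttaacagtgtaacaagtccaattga
vri first intron, chr2L:5289510-5289636, plus strand: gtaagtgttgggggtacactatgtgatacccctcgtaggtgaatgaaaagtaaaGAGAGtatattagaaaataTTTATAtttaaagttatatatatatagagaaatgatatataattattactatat
cwo intron, chr3R:10393806-10394006, plus strand: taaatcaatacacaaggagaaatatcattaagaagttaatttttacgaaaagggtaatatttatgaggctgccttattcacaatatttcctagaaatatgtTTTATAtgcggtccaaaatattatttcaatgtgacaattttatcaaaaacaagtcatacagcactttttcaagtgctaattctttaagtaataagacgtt
cyc upstream, by the Deaf1 start, chr3L:19818007-19818173, minus strand: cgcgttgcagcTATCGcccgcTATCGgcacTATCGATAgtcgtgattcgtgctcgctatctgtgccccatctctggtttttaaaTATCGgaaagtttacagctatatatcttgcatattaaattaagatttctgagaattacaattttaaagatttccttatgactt

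In all, 17 peak summits lay in the 9 genes or within 5 kb of them. Within 500 bp of a transcription start site (TSS) a summit was found at 3 of the 9 genes, cu, vri and Pdp1, where 15.3% of all protein-coding genes had one. A summit lay in the gene body of 4 of the 9, with cwo added, against 11.6% of all protein-coding genes. Within the gene or 5 kb of it, 5 of the 9 had a summit, with cyc added, near the 43.6% of all protein-coding genes. At least 2 such summits were counted at 4 genes, cu, vri, Pdp1 and cyc, against 18.8%. The pair at cyc had overlapping regions. The cu gene entered these counts by the rule that chose it. Counted by start site, 3 of the 20 annotated TSSs of the 9 genes had a summit within 500 bp, against 13.9% of all protein-coding TSSs.

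Long genes carry a summit more often, so the counts were also set beside genes of like length. Among genes over 20 kb, 50.5% had a summit in the body, and both members of that length, vri and Pdp1, had one. Of genes of 10 to 20 kb, 34.8% did, and so did 2 of the 4 members, cu and cwo but not tim and Clk. The share was 20.9% at 5 to 10 kb, where per had none. Below 5 kb it was 4.31%, and cyc and cry had none. The 4 members with a body summit thus all exceed 10 kb, the lengths at which such summits are common. For a summit within 500 bp of a TSS the share was 24.7% at 10 to 20 kb, where 1 of 4 members had one. Over 20 kb it was 23.4%, and 2 of 2 members had one. It was 12.9% under 5 kb and 20.3% at 5 to 10 kb, where no member had one. Within the gene or 5 kb of it, the share rose from 38.7% under 5 kb to 60.9% at 10 to 20 kb and 65.2% over 20 kb.

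**Figure D1:**
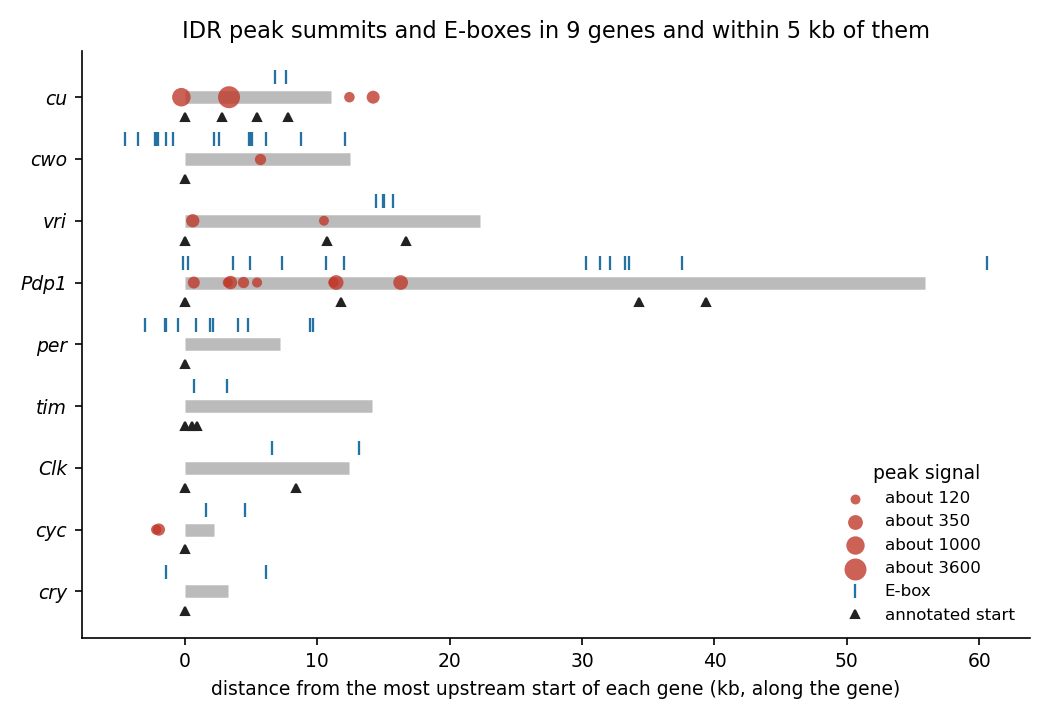
Peak summits of the IDR list (red circles, area growing with signal in the list of both libraries) and E-box words CACGTG (blue ticks above each gene) along the 9 genes and 5 kb on each side, in kb from the most upstream start of each gene. Grey bars are gene bodies and triangles annotated starts; 8 summits lie in Pdp1, all in its upstream part, and none at per, tim, Clk or cry.

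At cu (FBgn0261808, 3R, 11197592 to 11208633, plus strand, 6 annotated transcripts from 4 starts) the tall peak spanned 11200637 to 11201219. Its summit at 11200924 had a signal of 3592 in the list of both libraries, where it ranked 11 of 4309. In the list of replicate 2 it was 2716, rank 8, and in that of replicate 3 it was 899.7, rank 26. The peak was therefore near the top of every list. The summit positions in the libraries lay 3 and 2 bp from that of the joint list. It stood 515 bp downstream of the start shared by the transcripts RE, RG and RH, just outside the 500 bp window, and 356 bp into the first intron of each of them. For the longest transcript, RF, the same position was 3076 bp into the first intron.

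A second cu peak lay upstream of the gene, 268 bp before the start of RF, beyond the 3′ end of the neighbouring gene CG18577. Its signal was 1051 in both libraries together (rank 152), 665.7 in replicate 2 (rank 162) and 369.0 in replicate 3 (rank 151). The intron peak was 3.42 times as tall in the joint list, 4.08 times in replicate 2 and 2.44 times in replicate 3. The order of the cu peaks was the same in every list, but the size of the gap was not. Peaks at least as tall as the upstream one numbered 152, and 15 protein-coding genes had 2 or more of them in the body or within 5 kb. The starts of RD and RC, further into the gene, had no summit within 500 bp: the nearest lay 2108 and 4479 bp upstream of them, and was the intron peak.

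Peaks lower than those of cu also lay downstream of it, and these belonged to its neighbours by position. One with a signal of 133.7 (80.8 in replicate 2, 33.2 in replicate 3) was 168 bp from the start of SdhC, which encodes a subunit of succinate dehydrogenase. The other, 221.9 (143.2 and 50.6), lay in the 3′ UTR of Tctp, a growth regulator gene, 1564 bp from its start. They stood 1384 and 3178 bp beyond the end of cu. Beyond the 5 kb limit the nearest summits were 6011 and 6212 bp away, by ZnT86D, with signals of 256.2 and 120.3.

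**Figure D2:**
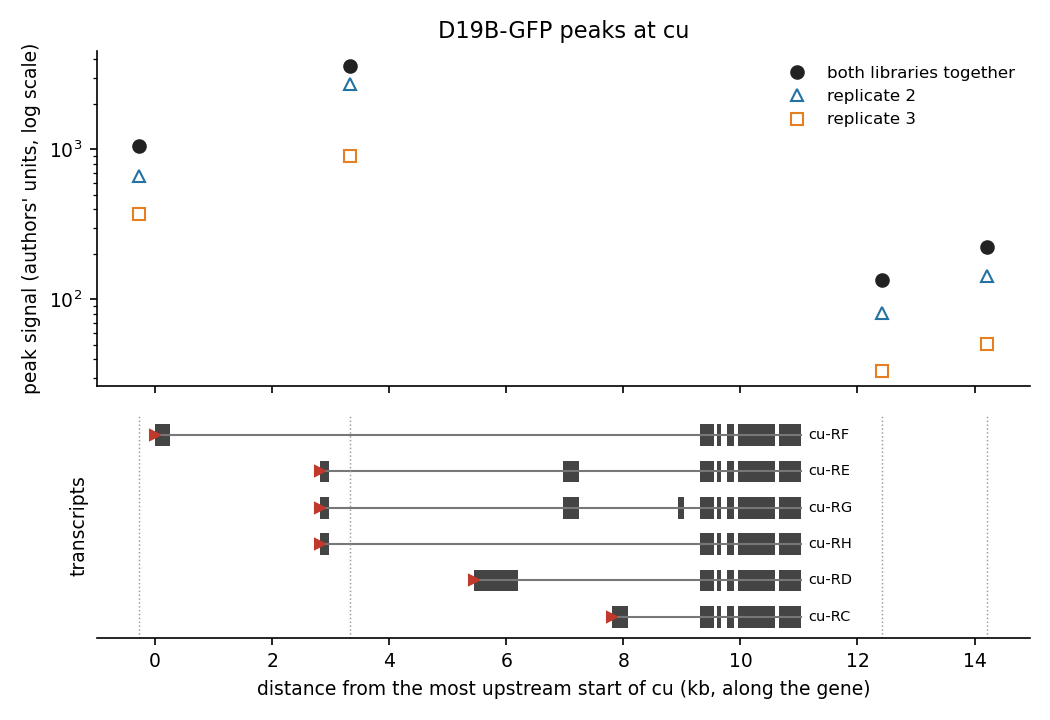
Summits at cu and its neighbours, as distance in kb along the gene from its most upstream start, with the signal of each list on a log axis and the transcripts drawn below. The intron peak reaches 3592 in the joint list, 2716 in replicate 2 and 899.7 in replicate 3, above the upstream peak in all of them.

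Among the genes of the second loop, Pdp1 (FBgn0016694, 3L, 7811458 to 7867369, minus strand) carried 8 summits within its 55.9 kb, 1.43 per 10 kb against 0.330 over the arms with peaks. Only 18 protein-coding genes (0.129%), Pdp1 among them, had 8 or more. Among the 267 genes at least as long as Pdp1, itself included, the median was 1, and 12 had 8 or more. All 8 lay in the upstream part of the gene, within 16295 bp of its most upstream start, and the starts of the shorter transcripts RD, RJ, RC and RL, further downstream, had no summit closer than 18001 bp. The peaks were of moderate or low height, from 119.9 to 342.6 in the joint list.

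The tallest Pdp1 summit lay 399 bp upstream of the start shared by 7 of its 13 transcripts. It had a signal of 342.6 with both libraries joined, 277.2 by replicate 2 alone and 83.9 by replicate 3 alone. A lower summit, 130.5, stood 200 bp away with an overlapping region, so the pair is close to 1 occupied stretch. Next in height was an intronic summit 4474 bp downstream of the same start, with 339.0 jointly, with replicate 2 at 232.0 and replicate 3 at 102.9. The replicate lists order these tallest peaks differently: the peak by the start was the taller of them in replicate 2 and the intronic one in replicate 3. Replicate 3 did not separate the overlapping summits by the start. It had a single summit between them, 63 bp from the taller and 137 bp from the lower.

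The other Pdp1 summits followed the most upstream start, at 670, 3232, 3443, 4425 and 5450 bp downstream of it. Their signals in the joint list were 179.2, 119.9, 247.3, 155.2 and 122.2 in that order. The pair at 3232 and 3443 bp again had overlapping regions, and replicate 3 had a single summit between them, 97 bp from the one and 114 bp from the other. The gene thus has fewer separate occupied stretches than summits.

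**Figure D3:**
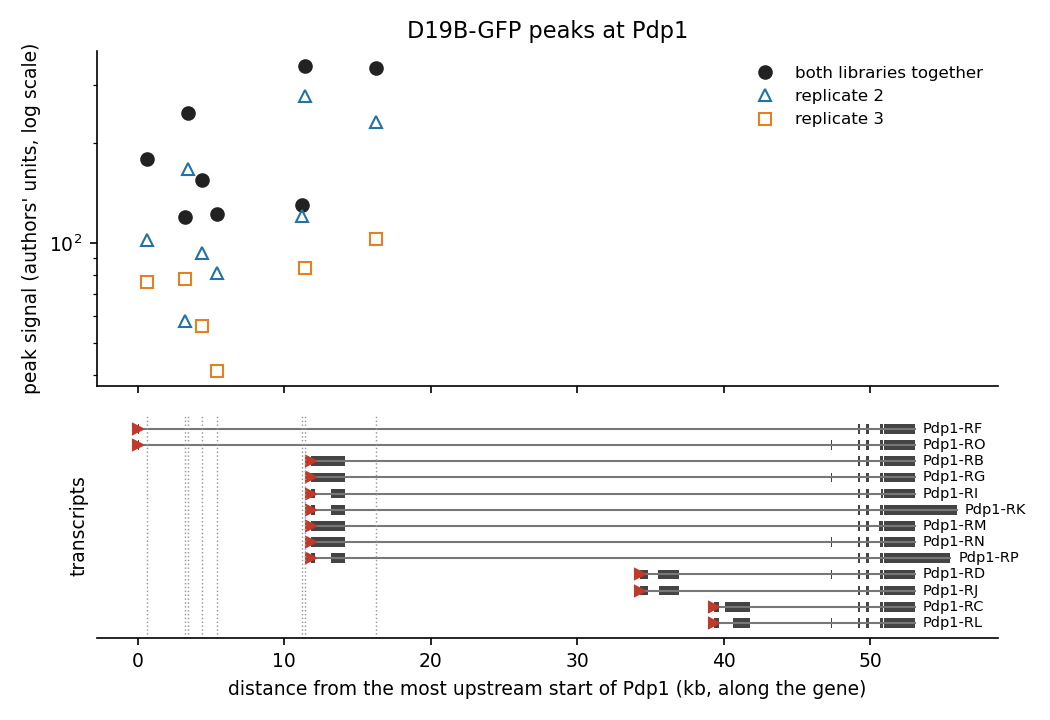
Summits at Pdp1 as distance in kb along the gene from its most upstream start, with the signal of each list on a log axis and the transcripts below. The 8 summits lie in the first 16.3 kb, between 119.9 and 342.6 in the joint list.

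At vri (FBgn0016076, 2L, 5288944 to 5311223, plus strand), the gene of the second loop's repressor, the summits straddled the list median of 199.5. The taller one, 592 bp downstream of the most upstream start and 27 bp into the first intron of RE, had 238.1 in the joint list, against 189.1 for replicate 2 and 53.5 for replicate 3. A lower one, 201 bp upstream of the start of RC, had 119.6, near the lowest signal in the list, with 91.5 and 32.8 in the replicates. The start shared by RA, RD and RF had its nearest summit 6204 bp away. The ratio of replicate 2 to replicate 3 was 3.53 and 2.79 at these summits. No common scale links the lists, and over all IDR peaks the ratio had a median of 1.91 and a 90th percentile of 3.34, so the taller summit lay beyond that percentile and the lower one within it.

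The gene of the E-box repressor, cwo (FBgn0259938, 3R, 10388258 to 10400752, plus strand), had 1 summit, 5648 bp downstream of its only start and in the first intron of all 3 transcripts. Its signal was 153.8 with both libraries joined, 96.3 by replicate 2 alone and 54.1 by replicate 3 alone. The start itself had no summit within 500 bp.

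Distance limits decided some of these placements. Just inside the 500 bp window were the summits at 201 bp (vri), 268 bp (cu) and 399 bp (Pdp1). Just outside were those at 515 bp (cu), 592 bp (vri), 599 bp and 670 bp (both Pdp1). On height, the lowest member peaks kept in the IDR list had 119.6 (vri) and 119.9 (Pdp1). The tallest member regions left out of it had 114.6 and 105.4 at vri and 105.3 at Pdp1.

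Of the core loop genes, cyc (FBgn0023094, 3L, 19813770 to 19815938, minus strand), which encodes the partner of CLK, had summits only beyond its start. They lay 1968 and 2169 bp upstream of it, 61 bp from the start of Fibp and 67 bp from that of Deaf1, a transcription factor gene, so both sit at the start of another gene. The first had 190.9 jointly, with replicate 2 at 125.5 and replicate 3 at 71.3. The second had 129.2 in both libraries together and 90.5 in replicate 2, with no replicate 3 summit closer than 114 bp. Their regions overlapped, with summits 201 bp apart, and replicate 3 had a single summit between them, 87 bp from the first.

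No IDR summit lay in or within 5 kb of per, tim, Clk or cry. From per (FBgn0003068, X, 2685580 to 2692780), which encodes the repressor of CLK and CYC, the nearest was 11115 bp away. That peak, 43 bp from the start of Ugalt, a sugar transporter gene, was tall, with 2571 in the joint list, against 1672 for replicate 2 and 912.4 for replicate 3. From tim (FBgn0014396, 2L, 3493986 to 3508119), whose product partners PER, the nearest was 16340 bp away, by Thor, with 975.3. From Clk (FBgn0023076, 3L, 7763233 to 7775603) it was 44501 bp away, by the ankyrin gene Ank2, with 3894 and rank 8. From the photoreceptor gene cry (FBgn0025680, 3R, 19212154 to 19215442) it was 35855 bp away, by CG14282, with 523.0. Their heights thus ranged from rank 8 of the list, near Clk, to rank 519, near cry.

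The full lists of 30000 regions, which reach far below the IDR limit, were searched for weaker signal at these genes. At per and Clk the joint list and replicate 2 held no region in the gene or within 5 kb. In the joint list 18.4% of protein-coding genes had none, so this is not rare over all genes, though the share was not matched for gene length. Replicate 3 had 2 regions at per, with signals of 16.5 and 22.6 at 225 bp before and 267 bp after its start, and 1 at Clk, with 22.5. Its list ends at 16.2, so these lie close to its floor. At tim the joint list had a single region, 1190 bp from the most upstream start, with 54.8, and replicate 2 had none. Replicate 3 had 5 regions at tim, from 17.3 to 32.5, and that of 32.5, 2788 bp from the start, was about as high as the lower vri summit in the same library (32.8). Another, of 22.0, lay 447 bp from the start. At cry the joint list had 64.1 at 253 bp before the start, where replicate 3 had 41.4 and replicate 2 had no region, and 71.1 downstream of the gene. The deposited lists allow no statement on reads below them. The same search gave 45 regions at Pdp1, 15 at vri, 13 at cu and 6 at cwo in the joint list.

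Where the summits sat within their genes was then compared. All 12 member summits in a gene body lay in the first intron of at least 1 transcript of that gene. For all IDR summits in protein-coding gene bodies the share was 64.9% (1712 of 2639), while first introns made up 30.8% of the bases of those bodies. Of the 12, 8 belong to Pdp1, where the longest first intron spans 49017 of 55912 bp, and the pattern rests on 4 genes. The longest first intron spans 9057 of 11042 bp at cu, 18055 of 22280 at vri and 7925 of 12495 at cwo. First introns thus fill most of these 4 genes, so the shares over all genes are not like for like. Of the 17 summits, 10 were intronic and more than 500 bp from any start, where 38.4% of all IDR summits were. Of these 10, 7 were in Pdp1.

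The libraries were compared at the same 17 summits. Replicate 2 had a summit within 100 bp of every one and replicate 3 of 14. Over those 14 the ratio of replicate 2 to replicate 3 had a median of 2.11 and ran from 0.743 to 3.53. Over the 3734 IDR peaks with a summit in both libraries the median was 1.91, with 1.09 and 3.34 at the 10th and 90th percentiles, and 92.2% were higher in replicate 2. Members were higher in replicate 2 at 13 of 14, and the exception was the Pdp1 summit 3232 bp from the most upstream start, where the replicate 3 summit lay between a pair. The cu intron peak, with a ratio of 3.02, was high among all peaks, 14.1% of which were higher still, and the upstream cu peak, with 1.80, was near the middle. With 1 pair of libraries, neither ratio has an error.

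**Figure D4:**
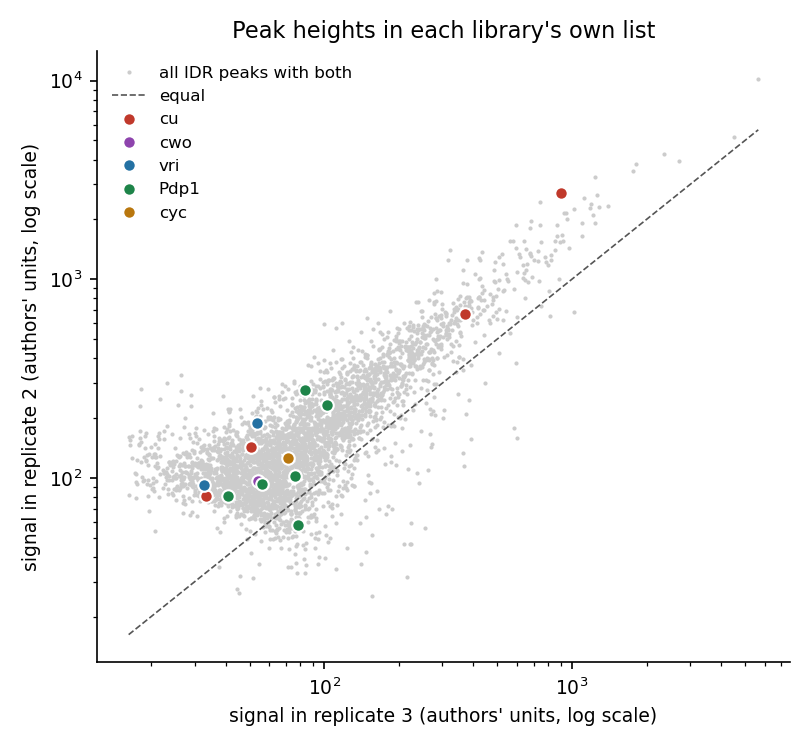
Signal in replicate 2 against replicate 3 on log axes for IDR peaks with a summit in both libraries (grey) and for the 14 member summits among them (coloured by gene). The cu intron peak lies at 2716 and 899.7, and 13 of the 14 member summits are higher in replicate 2.

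The windows under the summits were searched for the words marked in the printed sequences. Within 50 bp of the summit, 0 of 17 member windows held CACGTG, which was in 0.905% of all IDR windows and 1.55% of flank windows centred 500 bp away. TTATGTAA was in 0 of 17, against 1.09% of IDR windows and 0.685% of flanks. TATAAA was in 3 of 17, against 22.5% of IDR windows and 10.7% of flanks. CGATA was in 3 of 17, against 13.3% and 11.7%. GAGAG was also in 3 of 17, against 8.73% of IDR windows and 14.4% of flanks. With so few windows these shares are a description only. Base composition was low in GC at members as at all peaks, with a median of 28.7% (17.8 to 48.5%) against 32.7% at all summits and 43.6% in the flanks.

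The word ACAGGGTA was rarer in flanks than at peaks. It was chosen with earlier results of these data known, so this contrast is a description only. In windows of 101 bp it was in 0 of 17 member windows, 2.97% of IDR windows and 0.0464% of flank windows. In windows of 301 bp it was in 6.45% of IDR windows and 0.244% of flank windows. At that width it was in 1 of the 17 member windows, that of the cu intron peak, centred 104.5 bp before the summit. It is printed there as its reverse complement, TACCCTGT. The upstream cu window did not hold it. In the window by the Deaf1 start, 5 matches to CGATA lay from 20 to 53 bp from the summit.

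E-boxes were located because CLK and CYC act through them. The 9 genes with 5 kb on each side held 54 CACGTG words, 2.34 per 10 kb against 1.23 over the arms. They were unevenly spread: 15 at cwo (6.67 per 10 kb), 14 at Pdp1 (2.12), 11 at per (6.39), 4 at vri and 2 at each of the other 5 genes. The E-box of tim that lies nearest its starts, 201.5 bp before the start shared by 6 transcripts and inside the 5′ UTR of RO, is shown with 12 bases on each side.
tim E-box, chr2L:3507405-3507434, minus strand: acgttgtgattaCACGTGagccgatttccc

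Few E-boxes were near an IDR summit, and the count depended on the list. Of the 54, 4 (7.41%) lay within 500 bp of an IDR summit, 3 at Pdp1 and 1 at cwo, against 626 of 16428 (3.81%) over the arms. With all 30000 regions of the joint list, a setting added after the data were seen, 19 (35.2%) did, against 20.9% over the arms. These were 10 at Pdp1, all 4 at vri, 3 at cwo, 1 at cu and 1 at tim, the nearest 22.5 bp away. The joint list held 45 regions at Pdp1 and 15 at vri. The arm shares were not matched for the density of summits, so the comparison is not like for like. For IDR summits the closest E-box, at Pdp1, was 171.5 bp away, and that of cwo was 491.5 bp away. The E-boxes of cu were at least 3505.5 bp from an IDR summit. The 11 at per, which is dense in the word, were at least 8628.5 bp from a summit of either list. IDR peaks and E-boxes were thus both numerous at Pdp1, while per had E-boxes and no IDR peak and cu had tall peaks and few E-boxes. Within 500 bp of a start, CACGTG was found at 5 of the 20 member TSSs (25.0%), against 12.7% of 19630 protein-coding TSSs. Both tim starts among the 5 share 1 box.

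Other genes of the clock and of the families to which the members belong were read from lists. Of 22 other clock genes, 4 had a summit within 500 bp of a start (18.2%, against 15.3% of all protein-coding genes): sgg, the GSK-3 kinase gene, mts and tws, genes of protein phosphatase subunits, and Eip75B, a nuclear receptor gene. In the body 8 had one (36.4%, against 11.6%): dco, the casein kinase gene known as doubletime, sgg, nmo, tws, wdb, ctrip, Mef2 and Eip75B. The peak at sgg had 606.6 with both libraries joined, 389.3 by replicate 2 alone and 219.8 by replicate 3 alone, and that at Eip75B had 442.7. A tall peak within 5 kb of Mef2, a transcription factor gene, was 168 bp from the start of Pdrg1, with 1239. One near slmb, an F-box gene, was 126 bp from the start of Bdbt, with 832.2, and Bdbt is itself a clock gene, whose product acts on DBT. Bdbt was not among the 22, so it is not counted with the 4 genes above. In the gene or within 5 kb of it 16 of the 22 had one (72.7%, against 43.6%). Gene length was not matched in these lists.

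Among 11 deadenylase genes, whose enzymes shorten mRNA tails and with some of which nocturnin is grouped by sequence, 2 had a summit within 500 bp of a start (18.2%, against 15.3% of all protein-coding genes), PAN3 with 840.9 and Pop2 with 138.7. The peak within 5 kb of twin, with 437.6, lay 200 bp from the start of CG6204. None of those named here reached the cu intron peak, but cu was chosen by that height, so no contrast is drawn.

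Of 9 bHLH-PAS genes, the family of Clk and cyc, 3 had a summit within 500 bp of a start (33.3%, against 15.3% of all protein-coding genes): trh, a tracheal regulator (324.1), gce, a juvenile hormone receptor gene (685.5), and tai. A summit in the body was found in 5 (55.6%, against 11.6%), sim, trh, sima, gce and tai. The tallest was at gce, with 935.1, and lay 260 bp from the start of asRNA:CR44429. A peak of 650.7 lay in an intron of sima, the fly HIF-alpha gene. Among 10 bHLH-Orange genes, the family of cwo, only E(spl)m3-HLH had one within 500 bp (467.0), against 15.3% of all protein-coding genes. That summit lay 479 bp from the start of E(spl)m3-HLH but 268 bp from that of lncRNA:CR43644. In the body 0 of the 10 had a summit, against 11.6%. In the gene or within 5 kb of it 5 of the 10 had one, against 43.6%. Of 13 bZIP genes, the family of vri and Pdp1, 6 had one within 500 bp (46.2%, against the same 15.3%): crc, kay, Atf3, Xbp1, CrebA and cnc. The tallest were at CrebA, a secretory pathway regulator, with 2020 (rank 45), and Atf3, with 1379 (rank 98). These were taller than any peak of vri or Pdp1.

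Finally, the intronic peaks of the list were ranked by how close their signals in the joint and the replicate lists were to those of the cu intron peak, as Euclidean distance on the log2 scale over 1484 peaks. The closest lay in introns of CG4297 (3676 in both libraries together, 2571 in replicate 2, 1117 in replicate 3, distance 0.32), CG9328 (3082, 2166 and 930.0, distance 0.40) and shn, which encodes a zinc-finger factor acting in Dpp signalling (3583, 2402 and 1199, distance 0.45). In each of them replicate 3 was higher than at cu. The likeness is one of height over 3 lists only.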

How the data were processed

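ChIP-seq peak lists on the dm6 build were used: the IDR list and the lists of 30000 regions for replicate 2, replicate 3 and both libraries together. The deposited signal of each region is the authors' height relative to the control, per the file format, and was not rescaled between lists. The deposited −log10 q is likewise the authors' value; in the IDR list it ran from 2.88 to 3.80. Aligner, peak caller and IDR threshold are not stated (not given in the sources used here), and read depth is unknown. The dm3 lists were not used. The 2 libraries come from the same line, and the labels call them biological replicates.

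Summits (region start plus offset plus 1) were placed on the Ensembl release 115 annotation (FlyBase 6.54), with transposable elements left out, and a library summit within 100 bp was taken as the same peak. Words were searched on both strands. Python 3.11.15, numpy 2.4.6 and pandas 2.3.3 were used, and figures were drawn with matplotlib 3.10.9. Simulated positions were built to meet the distance rules, so that check could not fail and does not test the placements. No test across genes was made, because the members, gene lists and words were chosen with earlier results of these data known. Genes named are the 9 members; in each other list the 2 with the tallest peak within 500 bp of a start and the 2 with the tallest in the body or within 5 kb; the 3 with intronic peaks most like that of cu; and the genes whose starts lie nearest to the named peaks. Other listed genes counted within 500 bp of a start or in the body are named beside the count. The 3 symbols absent from the annotation were matched through RefSeq synonyms. Alternatives changed the list, the library, the distances and the window.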

Additional observations from a re-analysis of the deposited data

How the results depend on the processing

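Of the values recomputed, 30 stayed within 1.5 times of the reported one, 9 moved and 0 reversed. Members with a summit within 500 bp of a start numbered 3, but 6 with all regions of both libraries (cwo, tim and cry added) and 0 with a window of 200 bp. Among the 2154 tallest peaks, 3 members had a summit in the gene or within 5 kb, and 7 summits remained in place of 17; all regions gave 84. Leaving out either library put the height of the cu intron peak at 899.7 to 2716, on lists that are not scaled to each other. TATAAA was in 6 member windows with 100 bp each side and 8 with 150 bp. The E-boxes within 500 bp of a summit numbered 4 with IDR summits and 19 with all regions of both libraries, an alternative added after the data were seen. For each library alone the 4309 regions of highest signal were kept. On them the counts in the body and within 5 kb were 4 and 5 for either library, and within 500 bp of a start 3 for replicate 2 and 2 for replicate 3, whose vri summit there, ranked 6512, fell below that limit. No error can be put on a height from 2 libraries.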
